A study of Mus musculus with 16 samples.

Results

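The interleukins and their receptors were followed in whole eWAT, the epididymal white fat depot, as all genes of the count table whose symbol begins with Il and a digit. This rule took 83 of 55573 genes, 82 of them protein coding and 1 antisense to Il1b. By role they were 37 ligands, 38 receptor chains, 3 decoy receptors (Il1r2, Il13ra2 and Il22ra2), 3 soluble antagonists, the enzyme Il4i1 and the antisense gene. Of the 83, 77 had a count in at least 1 library, 57 had enough counts to be tested, and 6 (Il17a, Il1f6, Il1f8, Il20, Il22 and Il3) had no count. A count of 0 in a library allows a level of up to 0.0424 to 0.0781 CPM, taking 3 counts as the limit, for counting error only.

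RNA was sequenced from 16 libraries, 4 mice per group. All mice were C57BLKS/J-db/db males, which lack a working leptin receptor, and all had received an AAV8 vector into the retroorbital sinus at 4 weeks of age. AAV8-eGFP served as the control and AAV8-LRG1-FL carried the adipokine LRG1 with a FLAG tag, and eWAT was taken at week 7 or week 10 of age (groups called eGFP and LRG1 below). The vector used the CB7 promoter, which is active in most cell types, so the overexpression was not limited to fat. Each cage of 4 mice had been assigned to a single virus, so that an effect of the cage and an effect of the virus cannot be told apart, and the labels do not place the mice in the 3 db/db cohorts of the study. The transcript of Lrg1, with vector and mouse copies counted together, reached 86.2 to 110.2 CPM in controls and 288 to 478 CPM in LRG1 mice of week 7, and 99.6 to 115 and 286 to 624 CPM at week 10.

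Interleukins are secreted signals by which immune, stromal and fat cells adjust inflammation. Most act through pairs of receptor chains, several of which are shared: the common gamma chain by IL-2, IL-4, IL-7, IL-9, IL-15 and IL-21, the gp130 chain by IL-6 and IL-11, and the IL-12 receptor beta 1 chain by IL-12 and IL-23. The IL-1 family is held in check by antagonists and decoys that take the place of the ligand or bind it, and obese visceral fat is known as a site where macrophages and lymphocytes gather and make and receive such signals.

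Library totals ran from 45376227 to 67539937 counts. Levels are given as CPM, counts scaled to a common library total after TMM correction, and between genes only as RPKM, which divides CPM by the exonic length in kilobases. The 6 adipocyte markers summed to 9774 to 10286 CPM in the eGFP and 12712 to 15836 CPM in the LRG1 libraries of week 7. At week 10 they summed to 6448 to 14483 and 15078 to 16467 CPM. Much of this sum was Fabp4, at 5315 to 5678 CPM in the eGFP mice of week 7. None of the 6 was called between eGFP and LRG1 mice at week 7, and only Lep was at week 10, as higher. The 5 markers of the neighbouring epididymis stayed at or under 1.25 CPM in sum. Among the control mice of week 10, mice 1 and 3 stood apart, and their adipocyte sums were the lowest of all libraries (6448, 14483, 7662 and 13590.2 CPM in mice 1 to 4). The 6 mast cell markers of these controls summed to 384, 47.7, 429 and 102 CPM in mice 1 to 4, against 28.9 to 32.6 CPM in the LRG1 mice, and the 5 neutrophil markers to 174, 18.2, 333 and 96.4 CPM, against 31.7 to 81.2. In whole tissue, fewer cells of a type and less RNA per cell cannot be told apart.

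Promoter sequences are shown for 4 members as examples. The antagonist Il1rn, the receptor Il7r and the ligand Il12b were lower in LRG1 mice at week 7, and Il2ra was higher. The windows come from RefSeq, build GRCm38.p6, and run from 250 bases before to 50 bases after an annotated start, 5′ to 3′ on the strand of the gene. RefSeq windows were at hand for 66 of the 83 members (81 windows), including 10 of the 17 members lower at week 7. Capitals mark, on either strand, the letters of 5 motifs: the interferon-gamma activated site (TTCNNNGAA), the core of the interferon-stimulated response element (GAAANNGAA), the PU.1 core (GAGGAA), the AP-1 site (TGANTCA) and the TATA box (TATAAA). The first pair of these motifs can overlap each other.
Il1rn, chr2:24336610-24336909, plus strand (1 of 3 windows): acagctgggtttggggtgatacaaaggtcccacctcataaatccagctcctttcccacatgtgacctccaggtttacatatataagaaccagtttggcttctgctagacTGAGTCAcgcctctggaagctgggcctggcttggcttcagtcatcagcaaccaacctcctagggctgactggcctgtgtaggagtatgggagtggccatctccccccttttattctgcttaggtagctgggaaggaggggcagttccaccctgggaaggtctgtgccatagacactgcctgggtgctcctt
Il7r, chr15:9529827-9530126, minus strand: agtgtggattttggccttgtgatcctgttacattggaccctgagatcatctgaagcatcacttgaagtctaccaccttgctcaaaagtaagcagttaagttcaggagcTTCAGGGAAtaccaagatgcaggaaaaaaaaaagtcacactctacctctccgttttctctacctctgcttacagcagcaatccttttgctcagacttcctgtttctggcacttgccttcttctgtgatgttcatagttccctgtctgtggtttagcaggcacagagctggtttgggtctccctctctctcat
Il12b, chr11:44399813-44400112, plus strand: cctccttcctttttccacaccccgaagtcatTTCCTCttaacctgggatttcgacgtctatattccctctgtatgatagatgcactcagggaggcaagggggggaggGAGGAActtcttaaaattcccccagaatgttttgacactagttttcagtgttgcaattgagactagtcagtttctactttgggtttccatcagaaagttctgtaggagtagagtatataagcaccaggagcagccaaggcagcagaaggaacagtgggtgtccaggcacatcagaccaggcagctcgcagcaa
Il2ra, chr2:11642542-11642841, plus strand: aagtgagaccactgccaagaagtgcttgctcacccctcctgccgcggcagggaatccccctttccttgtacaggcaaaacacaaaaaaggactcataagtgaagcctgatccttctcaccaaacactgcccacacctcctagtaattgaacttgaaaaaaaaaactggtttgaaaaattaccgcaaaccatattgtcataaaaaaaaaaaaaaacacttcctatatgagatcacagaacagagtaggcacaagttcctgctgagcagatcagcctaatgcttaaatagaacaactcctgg
The capitals in Il1rn are an AP-1 match that begins 141 bases before the start, and those in Il7r an interferon-gamma activated site match that begins 142 bases before it. The other Il1rn windows, not shown, held no AP-1 match. Il12b holds a PU.1 core on each strand, and the letters of none of the 5 motifs occur in the Il2ra window. Among the 66 members with a window, 14 held an AP-1 match (21.2%), against 8.98% of the 26994 genes with a window, and 11 held an interferon-gamma activated site match (16.7%), against 9.55%. The interferon-stimulated core was found in 4 members (6.06%) and in 9.75% of genes, the PU.1 core in 27 (40.9%) and in 31.2%, and the TATA box in 13 (19.7%) and in 15.7%. Of the 10 members lower at week 7, 2 held an AP-1 match and 2 an interferon-gamma activated site match, while of the 33 tested members that did not pass at that week 8 and 5 did. Matches are letters in a sequence and do not show that a factor is bound.

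Receptors filled most of the upper end of the levels. A median of 1 RPKM or more over the 16 libraries was reached by 27 members, and by 40 when the same level was set in TPM. The highest was Il6st, which encodes gp130, at 25.4 RPKM, followed by Il10rb at 9.97, Il4ra at 7.65, Il1r1 at 7.205, Il10ra at 7.12, Il7r at 6.65, Il13ra1 at 6.63 and Il11ra1 at 5.78 RPKM. Of the ligands, Il33, an alarmin of stromal cells, was the highest at 5.67 RPKM, ahead of Il18 at 2.86 and Il34, a ligand of the CSF1 receptor, at 2.73. The inflammatory ligands Il1b and Il6 were low, at 0.821 and 0.1396 RPKM. After Il6st, neighbours in this order differed by less than the range between groups: Il10ra, for example, had group medians from 5.02 RPKM in LRG1 mice of week 7 to 15.9 in eGFP mice of that week.

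**Figure D1:**
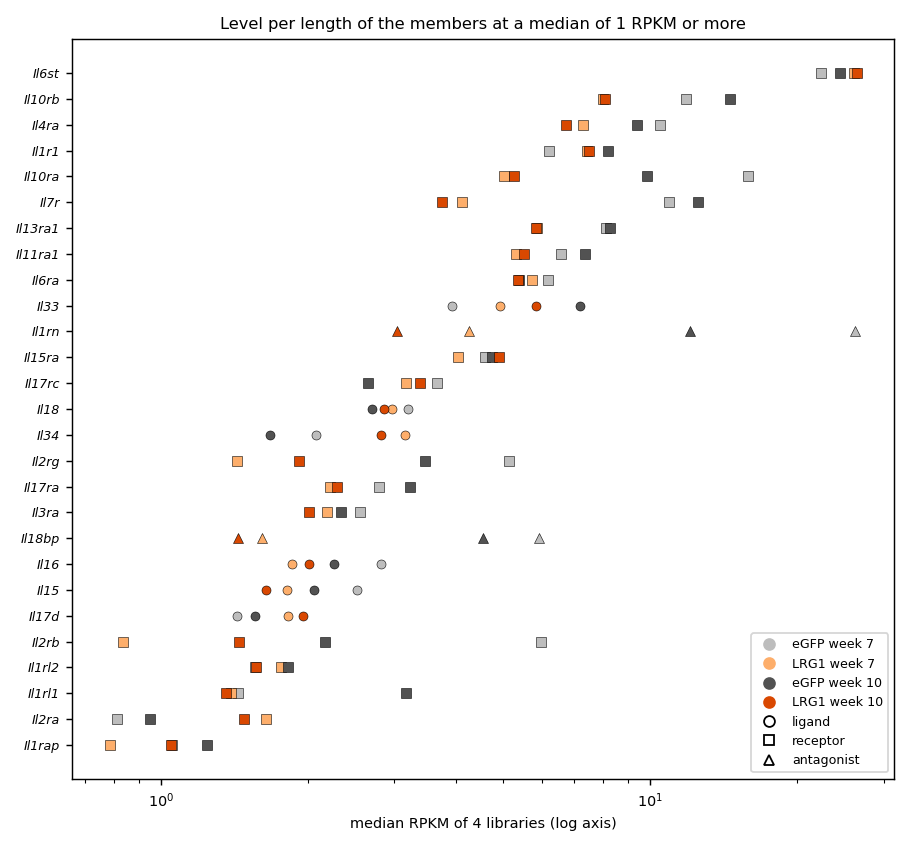
Median RPKM of the 4 libraries of each group, on a log axis, for the 27 members at a median of 1 RPKM or more over all libraries; colour gives the group and shape the role. Il6st lies above all other members in the LRG1 groups and in eGFP mice of week 10, and Il1rn and Il2rb show the widest spread between groups.

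At week 7, the first comparison asked which members differed in LRG1 mice 3 weeks after the virus. Of the 57 tested members, 17 were lower, 2 were higher and 38 did not pass the threshold of an adjusted p of 0.01 (edgeR quasi-likelihood test, adjusted over 20822 genes). The lower members made up 29.8% of those tested, where 10.7% of all tested genes were called lower, and the higher ones 3.51%, where 7.37% were called higher. The median log2 fold change was -0.23 over the members and 0.01 over all tested genes. The lower members lay in the IL-1 family (4 of 15 tested), the gamma chain family with IL-13 (6 of 13), the IL-12 family (4 of 7) and the IL-10 family (2 of 6), and Il16 was the only other. None of the 5 tested members of the IL-6 family, of the 6 of the IL-17 family or of the 2 of the IL-3 and IL-5 family was called lower. All 17 lower members had their 4 LRG1 libraries below their 4 eGFP libraries, as did 99.2% of all genes called lower and 19.4% of all tested genes. At the same week 8 of 8 T cell, 7 of 8 macrophage and 4 of 6 NK cell markers were lower. The 8 macrophage markers summed to 3402 to 4307 CPM in the controls and 1574 to 1789 CPM in LRG1 mice, and the 8 T cell markers to 37.97 to 74.2 and 5.67 to 15.4 CPM. The part of these cells in the members' values was not tested.

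**Figure D2:**
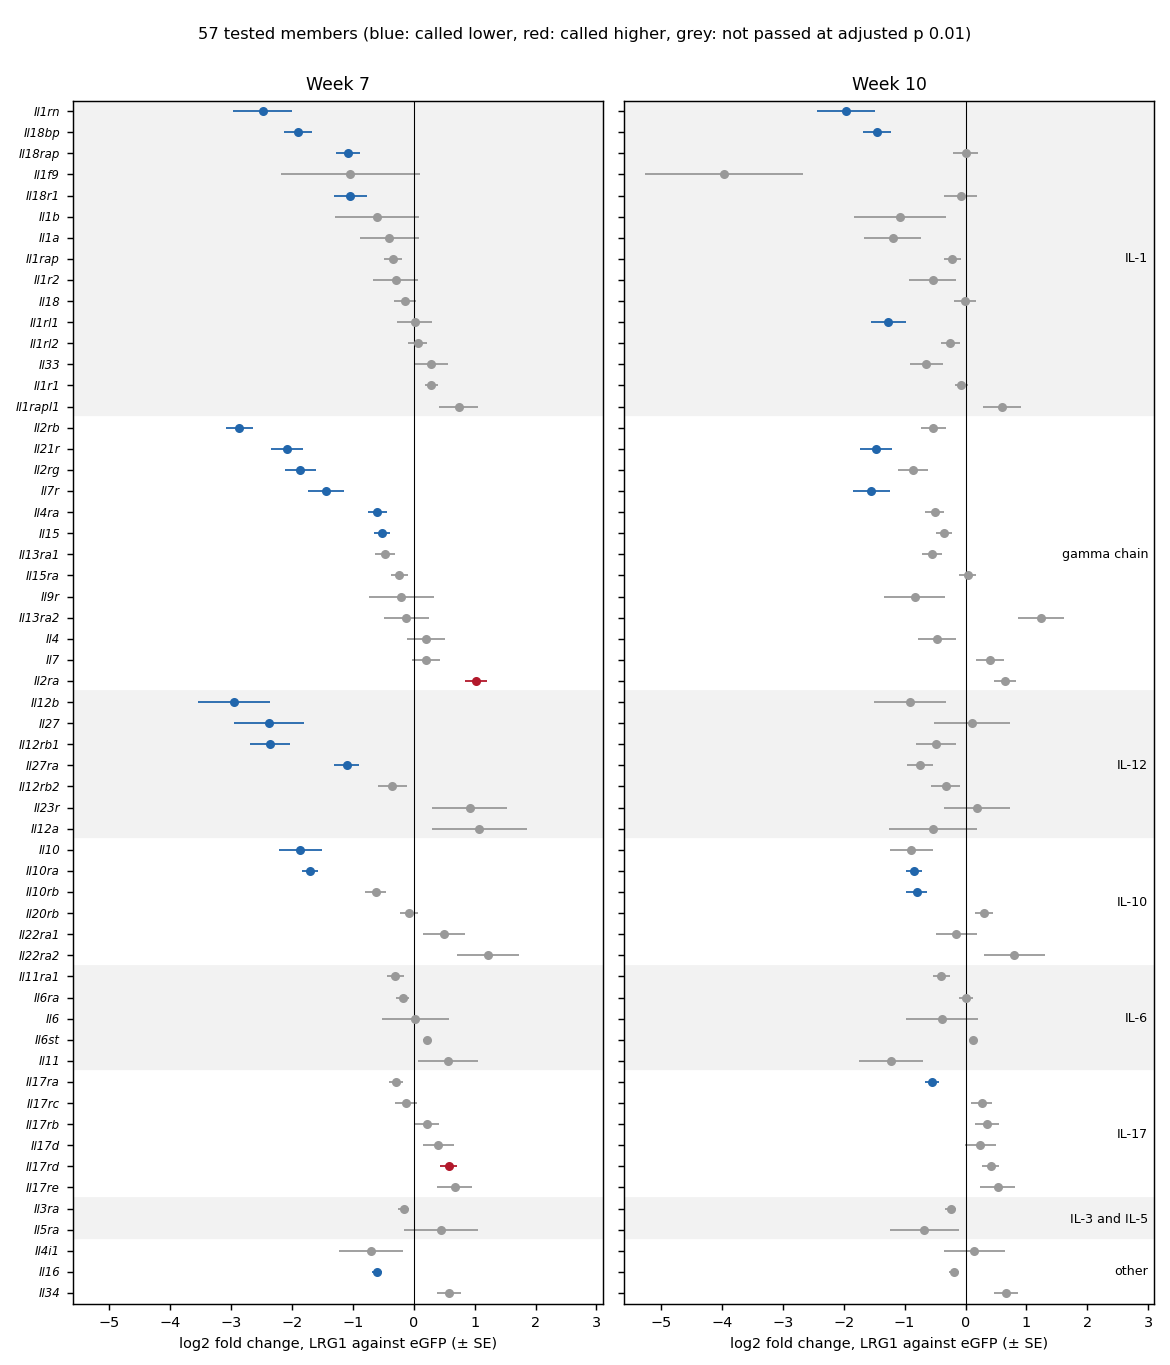
Log2 fold change of LRG1 against eGFP with its SE for the 57 tested members, grouped by family and ordered within a family by the value of week 7 (left, week 7; right, week 10; blue, called lower; red, called higher). At week 7 the blue points are in 5 of the 8 groups and reach -2.95 (Il12b), and at week 10 fewer points are blue and none is red.

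Both tested antagonists were lower at week 7. Il1rn (chromosome 2, 24336853 to 24351494 of GRCm38, as all positions of genes here), which encodes the IL-1 receptor antagonist, was at 162, 198, 129 and 88.3 CPM in eGFP mice 1 to 4 and at 26.7, 40.2, 16.2 and 20.4 CPM in LRG1 mice. Its lowest control stood at more than 2 times the highest LRG1 mouse, and the log2 fold change was -2.48 (SE 0.49, adjusted p = 0.0014). Il18bp (chromosome 7, 102014885 to 102018690), whose product binds and neutralises IL-18, was at 22.7, 15.1, 12.7 and 20.8 CPM in the controls and at 4.36, 4.89, 5.07 and 4.84 CPM in LRG1 mice, which differed little among themselves. The log2 fold change of Il18bp was -1.89 (SE 0.23, adjusted p = 3e-05). The ligands that they oppose did not pass. Il1b varied widely between mice of both groups, at 1.82, 5.95, 2.25 and 5.64 CPM in the controls and 2.96, 4.96, 1.98 and 0.413 CPM in LRG1 mice, and the groups overlapped (log2 fold change -0.60, SE 0.69, adjusted p = 0.543). Il1a was at 0.279 to 0.551 and 0.111 to 0.574 CPM with a log2 fold change of -0.40 (adjusted p = 0.566), and Il18 at 2.75 to 3.62 and 2.26 to 3.38 CPM with one of -0.14 (adjusted p = 0.598). The exons of Il18bp share 2.64% of their bases with Numa1 on the other strand.

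Ligands were lower at week 7 in 5 of the 17 cases tested, all of them at less than 25 CPM. Il12b, the p40 subunit of IL-12 and IL-23, was at 0.934, 0.466, 0.847 and 0.894 CPM in the controls and at 0, 0.135, 0.1299 and 0.138 CPM in LRG1 mice, 205 and 24 counts in all, so that its change rests on few counts (log2 fold change -2.95, SE 0.59, adjusted p = 0.00162). Il10, the ligand that restrains macrophages, was at 2.31, 4.01, 1.79 and 2.75 CPM in the controls and 0.891, 0.844, 0.455 and 0.792 CPM in LRG1 mice (log2 fold change -1.86, SE 0.35, adjusted p = 0.00105). Both genes had every LRG1 mouse below every control, although p40 promotes and IL-10 limits inflammation. Il16, which attracts CD4+ T cells, was at 22.9, 20.99, 21.4 and 23.2 CPM and 14.4, 14.2, 14.8 and 14.7 CPM, a small difference between tight groups (log2 fold change -0.61, SE 0.08, adjusted p = 6.7e-05). Its exons share 15.3% of their bases with Stard5 on the other strand. Il15, which sustains NK and memory T cells, was at 4.97 to 7.01 and 3.88 to 4.27 CPM (log2 fold change -0.52, SE 0.13, adjusted p = 0.00681). Il27, named after its values were seen, was at 0.217 to 0.782 and 0.0172 to 0.159 CPM (log2 fold change -2.38, SE 0.58, adjusted p = 0.00563). Its level was this high in all 4 libraries only in the controls of week 7. It may thus have had enough counts to be tested through them alone. The exons of Il27 share 10.1% of their bases with Apobr on the other strand. The partner subunit of Il27, Ebi3, was lower too, at 1.58 to 2.23 and 0.414 to 0.726 CPM, with a log2 fold change of -1.72 (SE 0.27, adjusted p = 0.00025).

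The 26 members that were not tested were 20 ligands, 4 receptors and others, and the 20 of them with a count had 1 to 101 counts over all 16 libraries. Il21, a T cell ligand, was among these. It had 51 counts over the 4 controls of week 7, at 0.222, 0.109, 0.0565 and 0.415 CPM, and none in the 4 LRG1 libraries. With 3 counts over the LRG1 group as the limit of 0, the pooled level of the controls was 15.7 times that limit. The ligand Il17b, named after its values were seen, lay the other way. It had no count in the controls and 9 in 3 of the LRG1 libraries, which pooled to 3.24 times the limit. Neither ratio takes in the spread between mice or the counting error of the group with counts. At week 10 Il21 was at 0.09199, 0, 0.05205 and 0.0337 CPM in the controls and 0, 0.0379, 0.0327 and 0 CPM in LRG1 mice, all near or under the limit of a count of 0 in a library. Part of its exons (8.92% of the bases) overlaps a gene on the other strand. Of the other ligands, Il6 did not pass and overlapped between groups, at 0.253 to 0.885 CPM in the controls and 0.172 to 0.861 CPM in LRG1 mice (log2 fold change 0.03, SE 0.55, adjusted p = 0.975). Il33 was at 8.91 to 16.1 and 10.8 to 18.9 CPM (log2 fold change 0.29, adjusted p = 0.454). Il34 had every LRG1 mouse above every control, at 3.798 to 4.78 and 5.81 to 6.78 CPM, but did not pass at 0.01 (log2 fold change 0.58, adjusted p = 0.0317).

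Of the receptors of the gamma chain cytokines, 4 were lower by more than 1 on the log2 scale, and Il4ra by less. Il2rb (chromosome 15, 78479256 to 78495271), the signalling beta chain for IL-2 and IL-15, was at 34.5, 22.9, 16.3 and 28.4 CPM in the controls and 3.47, 4.101, 2.76 and 3.69 CPM in LRG1 mice. The log2 fold change of Il2rb was -2.86 (SE 0.22, adjusted p = 2.9e-07), a 7.27-fold lower level. Il2rg, the common gamma chain itself, was at 15.95, 11.3, 8.49 and 13.3 CPM and 2.99, 4.304, 2.37 and 3.84 CPM (log2 fold change -1.86, SE 0.25, adjusted p = 7e-05). Its value is less certain, since 30.5% of its exonic bases are shared with the annotated gene Gm20489 on the same strand. Il21r was at 5.46, 4.74, 3.46 and 4.58 CPM and 0.939, 1.25, 0.715 and 1.41 CPM (log2 fold change -2.08, SE 0.26, adjusted p = 3.9e-05). Il7r, which naive and memory T cells need to survive, was at 50.2, 69.1, 51.7 and 35.04 CPM and 20.2, 24.2, 13.03 and 18.2 CPM (log2 fold change -1.44, SE 0.30, adjusted p = 0.00204). For each of these 4 receptors the highest LRG1 mouse lay well under the lowest control. Il4ra, which pairs with the gamma chain for IL-4 and with Il13ra1 for IL-13, differed less, at 60.6 to 73.05 and 35.5 to 48.1 CPM (log2 fold change -0.60, SE 0.15, adjusted p = 0.00732). Its exons share 9.51% of their bases with Gm44876 on the other strand. Il13ra1 was at 28.0005 to 33.8 and 20.3 to 24.3 CPM without passing (log2 fold change -0.47, adjusted p = 0.034), and Il15ra, which presents IL-15, overlapped between groups (log2 fold change -0.23, adjusted p = 0.226).

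Il2ra (chromosome 2, 11642807 to 11693193), the chain that gives the IL-2 receptor its high affinity and is known from regulatory and activated T cells, stood on the other side of its partner chains. It was at 3.798, 5.23, 4.94 and 4.34 CPM in the controls and 9.898, 8.61, 8.87 and 9.96 CPM in LRG1 mice, each LRG1 mouse above each control (log2 fold change 1.03, SE 0.18, adjusted p = 0.00056). In the same libraries the 3 regulatory T cell markers were lower, at 10.9 to 14.4 and 6.21 to 7.93 CPM in sum. The 4 endothelial markers were all higher, at 189 to 247 and 329 to 452 CPM in sum. The part of any of these cell types in the Il2ra level was not tested. Il17rd, an orphan receptor of the IL-17 family also known to restrain FGF signalling, was the other higher member, at 7.58, 6.41, 8.25 and 7.92 CPM in the controls and 11.7, 11.1, 10.6 and 11.4 CPM in LRG1 mice (log2 fold change 0.57, SE 0.14, adjusted p = 0.00575). The call of Il17rd was lost when any of the 8 libraries of week 7 was left out, and that of Il2ra in none of the 16 cases.

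Receptors of the IL-10, IL-12 and IL-18 systems were lower as well. Il10ra (chromosome 9, 45253837 to 45269149), the ligand-binding chain for IL-10, was at 70.002, 53.1, 48.3 and 57.97 CPM in the controls and 18.9, 17.9, 16.2 and 17.2 CPM in LRG1 mice (log2 fold change -1.71, SE 0.13, adjusted p = 2.8e-07). Il10rb, the partner chain shared with IL-22 and related cytokines, was at 41.8 to 55.7 and 29.3 to 31.9 CPM and fell just short of the threshold (log2 fold change -0.62, SE 0.17, adjusted p = 0.013). Il12rb1 was at 2.48, 1.68, 1.44 and 2.54 CPM in the controls and 0.207, 0.473, 0.471 and 0.431 CPM in LRG1 mice (log2 fold change -2.36, SE 0.33, adjusted p = 9.4e-05), whereas Il12rb2, the second chain for IL-12, overlapped between groups (log2 fold change -0.35, adjusted p = 0.278). The Il12rb2 value is uncertain, because 40.04% of its exonic bases overlap Serbp1 on the other strand. Il27ra was at 3.11 to 3.58 and 0.845 to 1.96 CPM (log2 fold change -1.10, SE 0.20, adjusted p = 0.0009). Both chains of the IL-18 receptor were lower: Il18rap at 7.13 to 9.98 and 2.94 to 5.2996 CPM (log2 fold change -1.08, SE 0.20, adjusted p = 0.001), and Il18r1, named after its values were seen, at 3.65 to 6.77 and 1.895 to 3.06 CPM (log2 fold change -1.04, SE 0.27, adjusted p = 0.00849).

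Other named receptors did not pass at week 7, among them the most abundant chain of all, Il6st. Il6st was at 235 to 266 CPM in the controls and 277 to 298 CPM in LRG1 mice, slightly higher without overlap (log2 fold change 0.21, SE 0.06, adjusted p = 0.021). Il6ra overlapped at 45.04 to 57.9 and 35.6 to 50.03 CPM (log2 fold change -0.18, adjusted p = 0.228), as did the signalling receptor Il1r1 at 36.1 to 44.3 and 44.3 to 55.8 CPM (0.29, adjusted p = 0.0575). The decoy Il1r2 had a log2 fold change of -0.30 (adjusted p = 0.584), Il11ra1 of -0.30 (adjusted p = 0.116), the IL-33 receptor Il1rl1 of 0.01 (adjusted p = 0.976) and the IL-17 receptor Il17ra of -0.28 (adjusted p = 0.0717). The 13 calls of week 7 other than Il15, Il18r1, Il27 and Il4ra among the lower members, and that of Il2ra, held whichever of the 16 libraries was left out. Those 4 were lost without 6 to 10 of the libraries, and the count of lower members then ranged from 13 to 18.

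**Figure D3:**
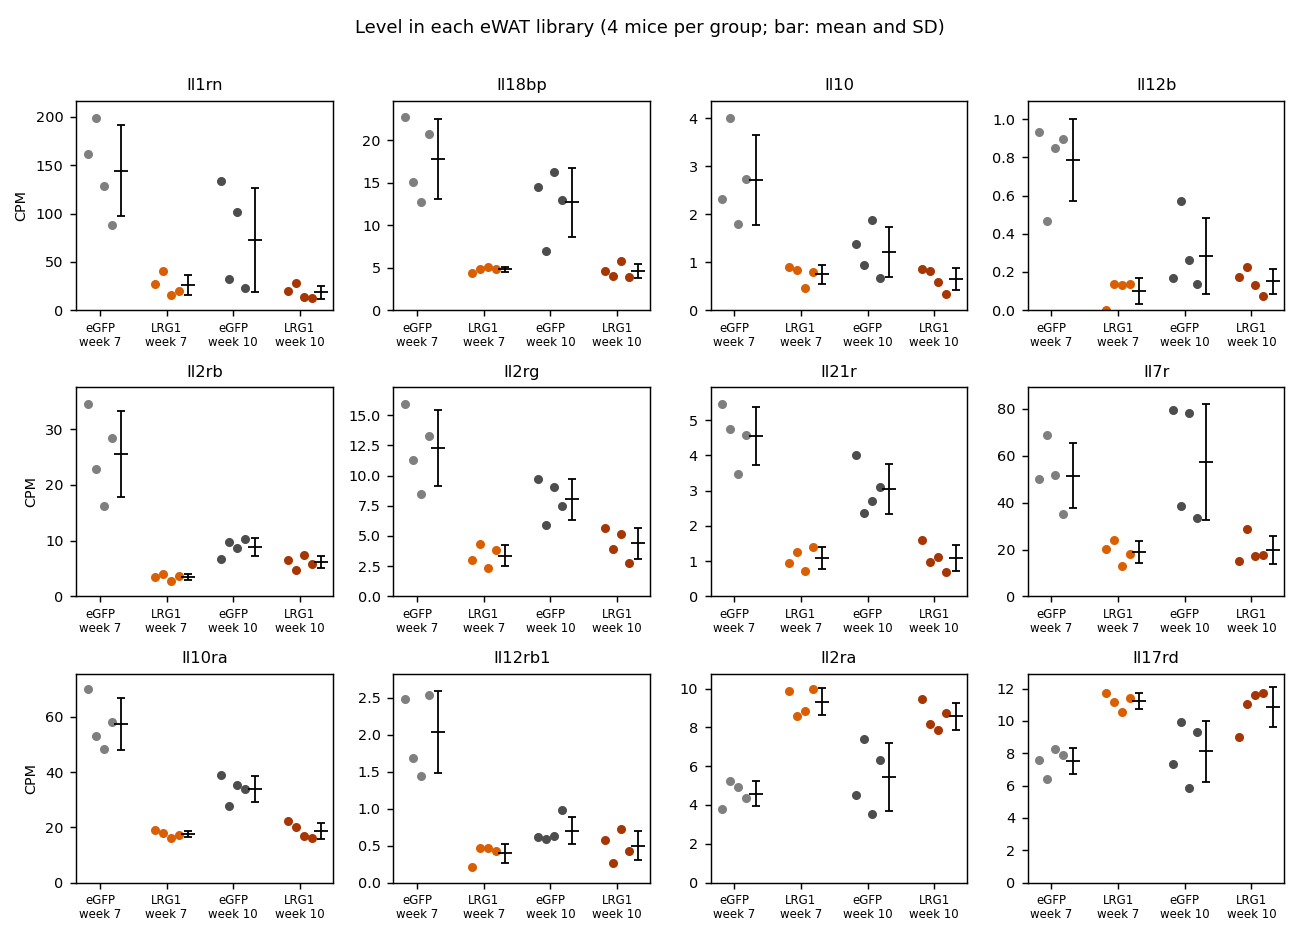
CPM in each library (points, mice 1 to 4 from left to right in each group) with the mean and SD of the 4 mice, for 10 members lower and 2 higher at week 7; each axis starts at 0. The LRG1 mice of week 7 sit below all controls of that week in the first 10 panels and above them for Il2ra and Il17rd, and the eGFP mice of week 10 are spread out for Il1rn and Il7r.

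At week 10, the same comparison was made 6 weeks after the virus. Here 8 members were lower and none was higher. The lower ones were 14.04% of those tested, beside 5.24% of all tested genes called lower, and 3.66% of genes were called higher. At an unadjusted p under 0.05, 4 members (of 57) and 17.4% of all genes would have been higher, and DESeq2 called 3 of the 4 (Il2ra, Il34 and Il13ra2). The median log2 fold change of the members was -0.36, and that of all tested genes was -0.0047. The 8 members were Il10ra, Il10rb, Il17ra, Il18bp, Il1rl1, Il1rn, Il21r and Il7r, thus both antagonists and 6 receptors, and none of the 17 tested ligands. Of these, 5 (Il10ra, Il18bp, Il1rn, Il21r and Il7r) had been lower at week 7 too. Mast cell markers (6 of 6), macrophage markers (7 of 8), neutrophil markers (3 of 5) and T cell markers (3 of 8) were lower at this week, and no NK cell marker was. The macrophage markers summed to 5626, 2306, 5860.5 and 3075 CPM in eGFP mice 1 to 4 and 1492 to 2036 CPM in LRG1 mice. Much of this sum was Lyz2, at 1131 to 3631 CPM in the controls. Cd68 was also spread out in them, at 206 to 651 CPM, and Csf1r less so, at 216 to 285 CPM.

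Most of these calls depended on single mice of that week, but those of Il10ra and Il18bp held whichever single library was left out. The count of 8 lower members became 3 without eGFP mouse 1, eGFP mouse 3, LRG1 mouse 1 or LRG1 mouse 3, 2 without LRG1 mouse 4, and 13 without eGFP mouse 2, when 2 members were also called higher. The calls over all genes moved in the same way, from 1854 in the fit of all libraries to 489, 530, 730, 416 and 284 without these 5 mice in the same order, and to 3647 without eGFP mouse 2. In a fit without eGFP mice 1 and 3, an alternative chosen after seeing the data, no member was called at week 10, and 161 of 21872 genes were (0.736%). None was in a fit of only the 8 libraries of that week, where 12 of all genes were (0.0627%). The fit without eGFP mice 1 and 3 gave log2 fold changes of -1.31 for Il21r (adjusted p = 0.0192) and -1.11 for Il18bp (adjusted p = 0.0171). It gave -0.87 for Il7r (adjusted p = 0.0702) and -0.71 for Il10ra (adjusted p = 0.0131). The others were -0.57 for Il1rn (adjusted p = 0.428), -0.33 for Il1rl1 (adjusted p = 0.16), -0.33 for Il10rb (adjusted p = 0.13) and -0.29 for Il17ra (adjusted p = 0.103).

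Of the 8 lower members, 7 were lower in each LRG1 mouse than in each control, and Il1rn was not. The same held for 88.6% of all genes called lower and for 10.1% of all tested genes. Il10ra was at 38.8, 27.6, 35.2 and 33.8 CPM in eGFP mice 1 to 4 and 22.2, 20.01, 16.9 and 16.1 CPM in LRG1 mice, with the lowest control above the highest LRG1 mouse (log2 fold change -0.85, SE 0.13, adjusted p = 0.00125). Il21r was at 4.001, 2.37, 2.71 and 3.103 CPM and 1.59, 0.966, 1.13 and 0.703 CPM, again with no overlap (log2 fold change -1.47, SE 0.26, adjusted p = 0.00218). Il18bp was at 14.5, 6.97, 16.3 and 13.02 CPM and 4.63, 4.07, 5.81 and 3.93 CPM, with control mouse 2 nearest to the LRG1 mice (log2 fold change -1.45, SE 0.23, adjusted p = 0.00139). The calls of Il10ra and Il18bp held whichever single library was left out, and that of Il21r was lost without LRG1 mouse 4.

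The other 5 were high in mice 1 and 3 and nearer to the LRG1 level in mice 2 and 4. Il1rn was at 134, 32.2, 102 and 22.9 CPM in eGFP mice 1 to 4 and 19.8, 27.8, 13.8 and 13.01 CPM in LRG1 mice, so that control mouse 4 lay within the range of the LRG1 mice (log2 fold change -1.97, SE 0.48, adjusted p = 0.00961). This call was lost in 14 of the 16 fits without 1 library. Il1rl1 (chromosome 1, 40429570 to 40465415), the receptor of IL-33, was at 31.4, 12.3, 35.96 and 11.5 CPM in the controls and 8.75, 9.87, 10.3 and 8.83 CPM in LRG1 mice (log2 fold change -1.27, SE 0.29, adjusted p = 0.00646). The mice high in Il1rl1 were the highest controls in the mast cell, neutrophil, eosinophil, macrophage and pan-leukocyte sums alike. They were also the lowest in the adipocyte sum. The part of any of these cell types in the Il1rl1 level was not tested. Il7r was at 79.6, 38.5, 78.1 and 33.4 CPM and 15.2, 28.6, 17.4 and 17.5 CPM (log2 fold change -1.54, SE 0.30, adjusted p = 0.00318). Il10rb was at 71.8, 38.2, 69.1 and 41.7 CPM and 29.7, 37.7, 31.8 and 27.5 CPM, where control mouse 2 exceeded LRG1 mouse 2 by less than 1 CPM (log2 fold change -0.80, SE 0.17, adjusted p = 0.00559). The value of Il10rb is less certain, since 14.9% of its exonic bases are shared with Gm21970 on the same strand. Il17ra, through which IL-17A signals, was at 33.5, 24.2, 31.8 and 22.5 CPM and 19.95, 19.97, 19.7 and 16.9 CPM (log2 fold change -0.55, SE 0.12, adjusted p = 0.00476). Its ligand Il17a had no count in any library.

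**Figure D4:**
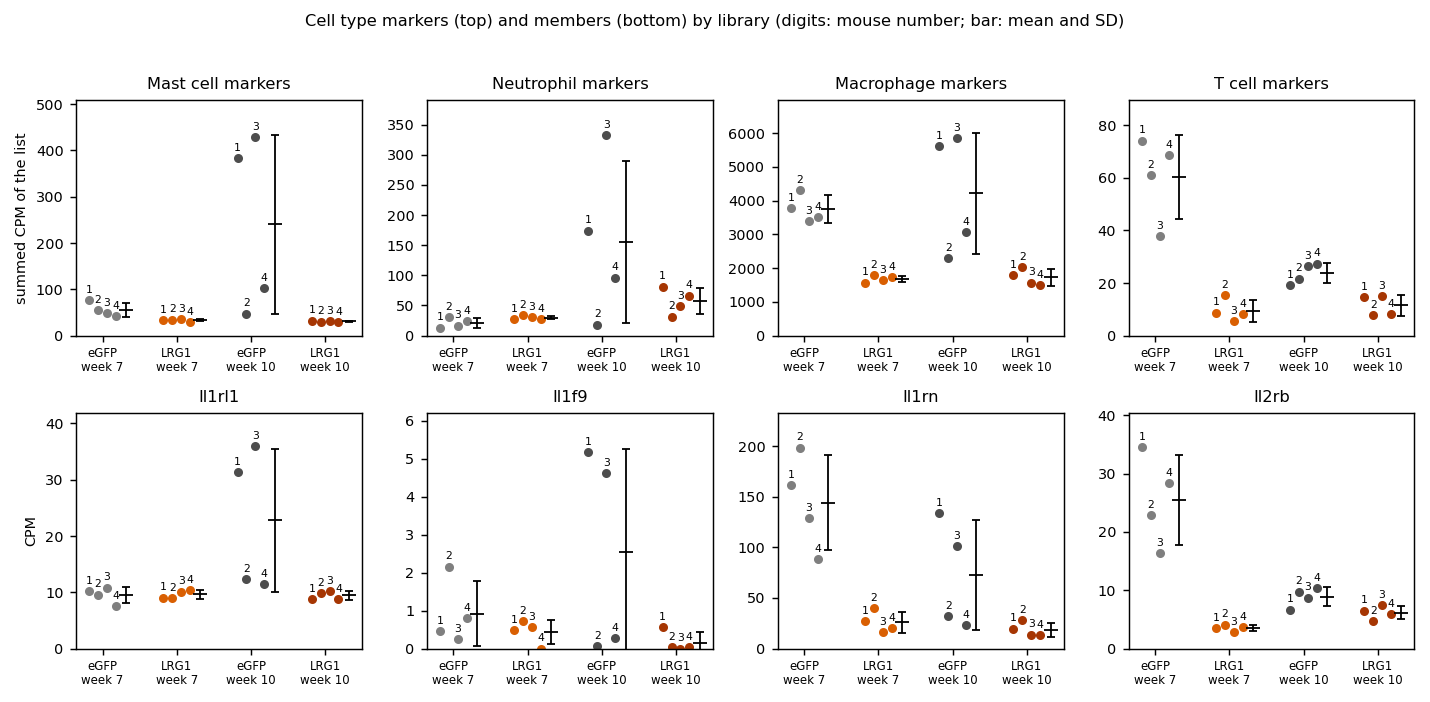
Summed CPM of 4 marker lists (top) and CPM of 4 members (bottom) in each library, with digits for the mouse and bars for the mean and SD of each group, which the axis ends at 0. Control mice 1 and 3 of week 10 stand out in the mast cell and macrophage sums, in Il1rl1 and Il1f9 and, together above mice 2 and 4, in Il1rn, while Il2rb is highest in the controls of week 7.

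No ligand passed at week 10. Il1f9, which encodes IL-36 gamma and was named after its values were seen, had the most negative value of the tested members, but it was at 5.17, 0.0671, 4.61 and 0.2698 CPM in the controls and 0.559, 0.0379, 0 and 0.03604 CPM in LRG1 mice, and so overlapped (log2 fold change -3.97, SE 1.29, adjusted p = 0.0374). The level of Il1a was 1.15, 0.302, 1.17 and 0.573 CPM in the controls, again higher in mice 1 and 3, and 0.261 to 0.402 CPM in LRG1 mice (log2 fold change -1.19, adjusted p = 0.077). Il1b overlapped at 0.269 to 3.13 and 0.288 to 1.31 CPM (log2 fold change -1.08, SE 0.76, adjusted p = 0.323). Il6 did so at 0.135 to 0.675 and 0.105 to 0.36002 CPM (log2 fold change -0.39, SE 0.59, adjusted p = 0.673). Il33 was at 40.996, 16.6, 18.8 and 22.7 CPM in the controls, where mouse 1 was the highest of all 16 libraries, and at 10.7 to 18.98 CPM in LRG1 mice (log2 fold change -0.65, adjusted p = 0.093). Il10, Il12b, Il15 and Il16, which were lower at week 7, now had log2 fold changes of -0.89 (adjusted p = 0.0836), -0.90 (adjusted p = 0.287), -0.36 (adjusted p = 0.061) and -0.19 (adjusted p = 0.0949). Il27, the other ligand lower at week 7, overlapped at week 10, at 0.215, 0.0839, 0.104 and 0.101 CPM in the controls and 0.262, 0.133, 0.0327 and 0.126 CPM in LRG1 mice (log2 fold change 0.10, SE 0.62, adjusted p = 0.925).

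The remaining named receptors did not pass at week 10 either. Il2ra was again higher in each LRG1 mouse, at 4.52, 7.402, 3.51 and 6.34 CPM in the controls and 9.49, 8.17, 7.87 and 8.74 CPM in LRG1 mice, but its adjusted p missed 0.01 (log2 fold change 0.65, SE 0.18, adjusted p = 0.0165). Il2rg and Il27ra were lower in each LRG1 mouse without passing, with log2 fold changes of -0.87 (adjusted p = 0.0194) and -0.75 (adjusted p = 0.0175). The log2 fold change was -0.51 (adjusted p = 0.0253) for Il4ra, -0.55 (adjusted p = 0.0216) for Il13ra1, 0.42 (adjusted p = 0.0419) for Il17rd and -0.40 (adjusted p = 0.0511) for Il11ra1. It was -0.49 (adjusted p = 0.302) for Il12rb1, and closer to 0 for Il18rap (-0.00087, adjusted p = 0.999), Il15ra (0.03, adjusted p = 0.888), Il1r1 (-0.07, adjusted p = 0.697), Il6ra (0.01, adjusted p = 0.978) and Il6st (0.12, adjusted p = 0.177). The ligands Il18 and Il34 had -0.01 (adjusted p = 0.966) and 0.67 (adjusted p = 0.0224), and the decoy Il1r2 had -0.54 (adjusted p = 0.335).

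Whether the effect of LRG1 differed between the weeks was tested directly as the difference of both log2 fold changes, in which 0.307% of genes were called higher and 0.0192% lower. Il2rb was the only member called. Its log2 fold change of -2.86 at week 7 became -0.53 (adjusted p = 0.0762) at week 10, a difference of 2.33 (SE 0.30, adjusted p = 0.00074). At week 10 Il2rb was at 6.65, 9.77, 8.74 and 10.4 CPM in the controls and 6.48, 4.76, 7.48 and 5.87 CPM in LRG1 mice. All 4 of these controls were below the lowest control of week 7, and all 4 LRG1 mice were above the highest LRG1 mouse of week 7. The 6 NK cell markers summed to 15.7 to 34.8 CPM in controls of week 7 and 4.26 to 7.53 CPM in LRG1 mice. Of these markers, Prf1, Nkg7, Gzma and Klre1 were lower at that week. Ncr1 (log2 fold change -0.02, adjusted p = 0.955) and Klrb1c (-0.26, adjusted p = 0.656) did not pass. At week 10 the NK cell markers summed to 8.999 to 13.999 CPM in controls and 8.22 to 14.2 CPM in LRG1 mice. The T cell markers summed to 19.3 to 27.4 and 7.901 to 15.2 CPM at week 10. The part of these cells in the Il2rb values was not tested. Il10ra came next among the members, with a difference of 0.86 (SE 0.18, adjusted p = 0.0306), and Il12rb1 and Il18rap followed (1.87 (adjusted p = 0.0701) and 1.08 (adjusted p = 0.0995)). For the other 4 members lower at both weeks, the adjusted p of the difference was 0.692 (Il21r) or more. The Il2rb call held without any 1 library and without eGFP mice 1 and 3 of week 10.

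Within the controls, the comparison of week 10 with week 7 gave 3 lower members and none higher, where 1.51% of genes were called lower and 0.629% higher. At an unadjusted p under 0.05, 8 members (of 57) and 8.98% of all genes would have been higher, and DESeq2 called 2 of the 8 (Il1rl1 and Il33). The lower members were Il2rb (log2 fold change -1.52, SE 0.21, adjusted p = 0.00051), Il10ra (-0.76, SE 0.13, adjusted p = 0.00233) and Il12rb1 (-1.53, SE 0.31, adjusted p = 0.00858). In each of them all 4 mice of week 10 were under all 4 of week 7. Il1rl1 and Il33, the receptor and its ligand, had log2 fold changes of 1.25 (adjusted p = 0.0159) and 1.06 (adjusted p = 0.03). No member was called in a fit of only these 8 libraries, 1 was without eGFP mouse 1 of week 7, and Il12rb1 lost its call in 11 of 16 fits without 1 library. Without eGFP mice 1 and 3 of week 10 the lower members were Il10, Il10ra, Il1rn, Il2rb and Il4ra, and Il2ra and Il7 were higher. That fit called 10.1% of all genes in this comparison (2209 of 21872, lower or higher), where the fit of all libraries called 2.14%.

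Within LRG1 mice, no member differed between the weeks in edgeR, DESeq2 or limma-voom. Over all genes, 0.0048% were called lower and 0.0048% higher. Unadjusted p-values under 0.05 were found for 2 of the 57 members below and 5 above 0, near the shares over all genes of 4.13% and 4.26%. The median log2 fold change over the members was 0.04. Il2rb had the highest value of the tested receptor chains, decoys apart. It was at 2.76 to 4.101 CPM at week 7 and 4.76 to 7.48 CPM at week 10, without overlap (log2 fold change 0.81, adjusted p = 0.255). No overlap was found for 4 members with higher and 1 with lower levels at week 10, beside 3.64% and 3.41% of all tested genes. Il10ra was at 16.2 to 18.9 and 16.1 to 22.2 CPM (0.10, adjusted p = 0.92).

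Beyond the Il symbols, 41 partner genes of these pathways were read from the same fit: partner chains and ligands, adaptors, kinases, STATs and feedback inhibitors. At week 7, 18 were lower, none was higher and 23 did not pass in edgeR, although 3 lay above 0 at an unadjusted p under 0.05. Over all tested genes, 10.7% were lower. Stat4, which acts downstream of IL-12, was at 2.32 to 3.32 CPM in the controls and 0.504 to 1.16 CPM in LRG1 mice (log2 fold change -1.84, SE 0.24, adjusted p = 6.4e-05). Casp1, the protease that matures IL-1 beta and IL-18, was at 50.7 to 71.1 and 15.8 to 17.98 CPM (-1.82, SE 0.22, adjusted p = 2.5e-05), although the ligands it cleaves did not pass. The adaptor of the IL-1 and IL-18 receptors, Myd88, had a log2 fold change of -0.81 (adjusted p = 0.00014), the gamma chain kinase Jak3 one of -0.52 (adjusted p = 0.00095), and the feedback inhibitors Socs1 and Cish ones of -1.40 (adjusted p = 0.00216) and -1.23 (adjusted p = 0.00192). Jak1, the kinase of most of these receptors, had -0.05 (adjusted p = 0.606), Stat6, downstream of IL-4 and IL-13, -0.05 (adjusted p = 0.623), and Socs3 -0.74 (adjusted p = 0.0219). The receptor of IL-34, Csf1r, which is itself a macrophage marker, was lower at week 7 (-0.73, adjusted p = 5e-05) and at week 10 (-0.43, adjusted p = 0.00576). At week 10, 6 partner genes were lower, beside 5.24% of all genes, and none was higher, beside 3.66%. At an unadjusted p under 0.05, 5 lay above 0, beside 17.4% of all genes. Apart from Csf1r, the lower ones were Casp1, Crlf2, Csf2ra, Osm and Stat4. In controls 2 partner genes were lower at week 10 than at week 7, beside 1.51% of all genes, and in LRG1 mice none. In LRG1 mice 3 partner genes lay below and 5 above 0 at an unadjusted p under 0.05, beside 4.13% and 4.26% of all genes.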

How the data were processed

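RNA of whole eWAT from 16 db/db males was measured, 4 per group, with groups taken from the labels. The deposited table holds whole-number counts per gene, not normalized. The authors used Cutadapt for trimming, STAR for alignment to mm10 and featureCounts for counting. Versions, the strand and multi-mapping settings, and whether reads or pairs were counted are not given in the sources used here. Genes overlapping on either strand, and the near copies Il11ra1 and Il11ra2, are therefore less certain. The exonic gene lengths deposited beside the counts gave RPKM.

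Symbols were matched for 55394 of 55573 genes. The quasi-likelihood F test of edgeR 4.0.16 (R 4.3.3) was run on the counts in 1 fit of all 16 libraries with 4 group coefficients, after filterByExpr by group and TMM scaling (factors 0.847 to 1.10). The filter kept 20822 genes. The common coefficient of biological variation was 0.203. SE was derived as the absolute log2 fold change divided by the root of F. Calls used a Benjamini-Hochberg adjusted p below 0.01 over all genes tested. The procedure was tested on simulated data. Library totals of 45376227 to 67539937 counts set the precision, and libraries of a group are separate mice.

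The members, families, partner genes and marker lists were chosen with earlier results of these data known. Named are, at each week, the 10 called members per direction with the smallest adjusted p, the 4 per direction in the comparisons of weeks, a fixed list of 31 members, and the 8 with the highest median RPKM. Alternatives were DESeq2 1.42.0, limma-voom (limma 3.58.1), RLE, upper quartile and library total scaling, other filters, fits of the 8 libraries compared, the replicate number as a block, an adjusted p of 0.05, and leaving out each library. A fit without eGFP mice 1 and 3 of week 10 was chosen after seeing the data. The authors' own comparisons were not used. Figures and sequences were handled in Python 3.11.15 with pandas 2.3.3 and matplotlib 3.10.9. The results of 1 partner gene are not reported here.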

Additional observations from a re-analysis of the deposited data

Results flagged for a closer look

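The difference of the LRG1 effect between weeks 7 and 10 was called for Il2rb, at 2.33 on the log2 scale. Single libraries were looked at in 132 groups of 4 for the 33 named members, and 8 lay far from the other 3 of their group, where chance gives about 1 group in 20. In LRG1 mice of week 7 these were Il12b at 0 CPM and Il12rb1 at 0.207 CPM, both the lowest of their group, and Il6ra at 35.6 CPM, also the lowest. In eGFP mice of week 10 they were Il12rb1 at 0.978 CPM and Il18 at 3.74 CPM, both the highest. In LRG1 mice of week 10 they were Il17ra at 16.9 CPM and Il6 at 0.105 CPM, the lowest, and Il18rap at 7.41 CPM, the highest.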

How the results depend on the processing

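Counts of members called were recomputed under other settings (threshold, tool, scaling, filter, libraries in the fit, replicate block), with each of the 16 libraries left out in turn, and in the fit without eGFP mice 1 and 3 of week 10, which was chosen after seeing the data. No called value changed sign. The counts of lower members at week 7 (17 as reported, 13 to 18 with a library left out) and the counts of 0 in LRG1 mice moved by less than 1.5 times in all of them. At an adjusted p below 0.05 there were 4 higher members at week 7, 13 lower and 4 higher at week 10, 5 lower and 2 higher in controls between the weeks, and 2 higher in the difference of effects. DESeq2 gave 3 higher members at week 10, 2 higher in controls and 3 in the difference, and called 17.1%, 5.18% and 1.32% of all genes there. Library totals as the only scaling gave 1 higher member at week 7; this scaling shifted the median log2 value of all genes by -0.16 at week 7, by -0.11 between the weeks in controls and by 0.15 in the difference. Testing with no filter gave 1 higher member in controls. Fits of only the 8 libraries compared gave 0 lower members at week 10 and 0 in controls. Without eGFP mice 1 and 3, 4 members were higher at week 7, 0 lower at week 10, 5 lower and 2 higher in controls and 2 higher in the difference. That fit called 27.2%, 0.736%, 10.1% and 2.13% of all genes in these comparisons. The cause of these changes was not tested. The last kinds of fit also held fewer libraries.

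With 1 library left out, the counts ran from 1 to 3 for higher members at week 7, from 2 to 13 for lower and 0 to 2 for higher members at week 10, and from 1 to 3 lower and 0 to 1 higher in controls. The higher count of week 7 was 1 with any 1 of the 8 mice of that week left out, that of controls was 1 without eGFP mouse 2 or 4 of week 10, and the lower count of controls was 1 without eGFP mouse 1 of week 7. Over the values of single named members, 981 such refits left the call as it was, 61 lost one and 14 gained one.

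Whether replicate numbers pair the mice is not stated in the labels, and weak correlations cannot settle it. Deviations from the group means of the 24 same-numbered pairs correlated at a median of -0.0126 (-0.200 to 0.142), and 3 pairs exceeded 0.1. With the replicate block, 15 members were lower and 1 was higher at week 7, 5 were lower at week 10, and 2 were lower in controls. Of the 83 members, 56 reached 0.1 CPM in all 4 libraries of a group, and 20 of the 26 members not tested were ligands. The part of sequencing depth in this was not tested.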
